A study of Danio rerio with 10 samples.

Results

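The endocrine islet genes of the zebrafish larva are described here, namely its pancreatic hormones, the islet transcription factor *pdx1* and the convertases that cut hormone precursors. The genes were chosen by name, with earlier results of these data known. They are *ins*, *insb*, *gcga*, *gcgb*, *iapp*, *ghrl*, *pdx1*, *pcsk1* and *pcsk2*. Of these 9 names, 7 were matched to an Ensembl identifier among the 32520 genes of the series, with *pcsk1* and *pcsk2* listed in capitals. No gene was listed under the names *gcgb* and *iapp*. A glucagon gene that the name table lists as *GCG*, without a copy letter (ENSDARG00000040907), may be *gcgb*. It is described beside *gcga* and is counted apart from the 7.

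RNA was sequenced from whole, otherwise untreated larvae at 120 hours post fertilization (hpf). The *aldh2.1*-/- group, homozygous for a frameshift deletion made with CRISPR/Cas9, held 5 libraries and the *aldh2.1*+/+ group held 5, and each library was made from 50 larvae pooled from a clutch. The study used the line Tg(fli1:EGFP), in which the *fli1* promoter drives a green fluorescent protein in endothelium. The mutant was made in that line and descends from 1 selected deletion. The study asked what loss of this aldehyde dehydrogenase does to reactive carbonyl species, glucose metabolism and blood vessels. It measured insulin and *pdx1* RNA also by RT-qPCR in larvae, and reported both as significantly lower in the mutant. The larvae of its main RT-qPCR figures were younger than those sequenced, so the stage may differ from that described here.

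The islet controls blood glucose with hormones of opposite action. Insulin from beta cells lowers glucose, glucagon from alpha cells raises it, and amylin and ghrelin come from beta and epsilon cells. Each hormone is made as a longer precursor, which the convertases Pcsk1 and Pcsk2 cut inside secretory granules, and neurons and pituitary cells use the same convertases. In mammals Pdx1 is required for the pancreas to form and, in beta cells, drives insulin transcription. Since whole larvae were sequenced, fewer islet cells and less RNA per cell cannot be told apart in any value below.

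Libraries held between 19792930 and 20703518 expected counts, which are reads per gene with shared reads divided by an estimate. Within each genotype, libraries were further apart than counting explains, at 7.44 to 77.8 units of chi-square for each degree of freedom. In the check of the labels, the gene that the name table lists as *ALDH2* was taken to be *aldh2.1*. It averaged 91.3 ± 35.8 normalized counts over the mutant and 220.4 ± 19.7 over the wild-type clutches (mean ± SD, n = 5 each). The genotypes did not overlap. The log2 fold change of *aldh2.1*, mutant against wild type, was −1.27 ± 0.21 (SE). Its edgeR adjusted p was 0.134, so the gene taken as *aldh2.1* did not pass the test used below for the islet genes. With DESeq2 its adjusted p was 2.2e-05. The close copy *aldh2.2* averaged 37.7 ± 6.08 and 291.4 ± 28.8, and it passed (edgeR adjusted p = 2.08e-07). Reads that both copies share were divided by an estimate, so how the loss splits between them is uncertain.

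Among the 7 genes and *GCG*, insulin had the highest mean level, and the second insulin gene and ghrelin were close to the detection limit. Levels are compared between genes in TPM, a transcript abundance scaled for transcript length and library depth. Over the 10 libraries *ins* had 34.2 ± 12.2 TPM, *pcsk2* 11.6 ± 3.53, *pcsk1* 9.97 ± 3.19, *gcga* 6.44 ± 1.14, *pdx1* 5.82 ± 1.71 and *GCG* 4.73 ± 1.79. The levels of *insb*, at 0.51 ± 0.42 TPM, and *ghrl*, at 0.26 ± 0.23 TPM, were lower. *ins* exceeded *pcsk2* in 10 of 10 libraries, although the lowest *ins* level (17.2 TPM) lay under the highest *pcsk2* level (19.1 TPM). The neighbours *pcsk2* and *pcsk1*, *gcga* and *pdx1*, and *pdx1* and *GCG* overlapped in range, and their order held in 8, 7 and 7 of 10 libraries. Between *GCG* and *insb* the ranges did not overlap.

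**Figure D1:**
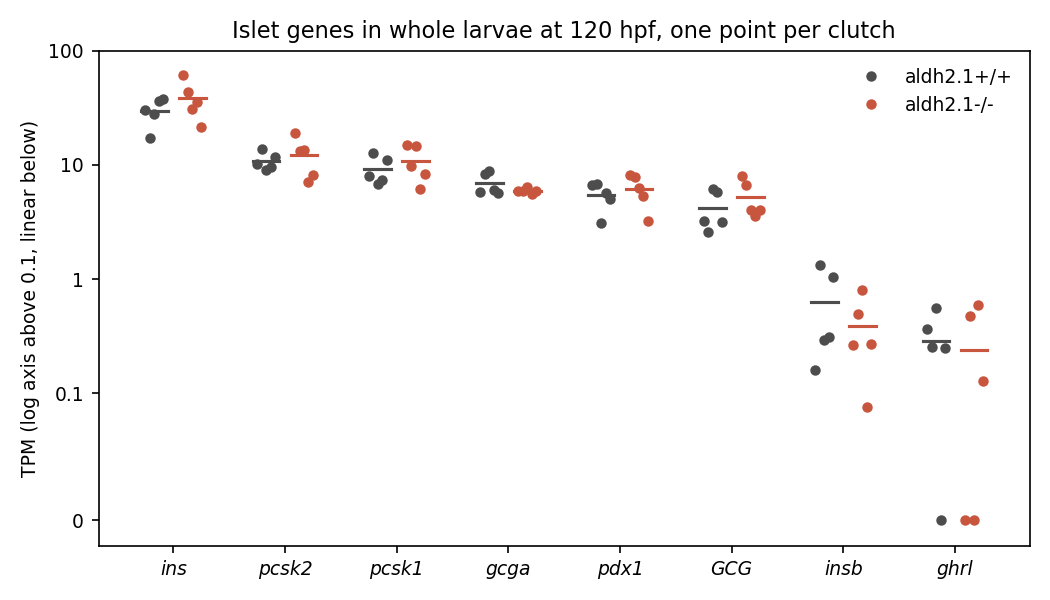
TPM of 8 islet genes in whole larvae at 120 hpf, on a log axis above 0.1 and a linear axis below. Each point is 1 clutch, grey for *aldh2.1*+/+ and red for *aldh2.1*-/-, and bars are means of 5. *ins* lies between 17.2 and 60.7 TPM, *insb* and *ghrl* lie under 1.34 TPM, and the genotypes overlap for every gene shown.

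None of the islet genes passed the test between genotypes. Of the 7 genes found, 5 passed the expression filter, and 0 of these 5 had an adjusted p under 0.05 by the edgeR quasi-likelihood test, beside 0.00929% of the 21532 genes tested. At an unadjusted p under 0.05 there were also 0 of 5, beside 5.04% of all genes (2.83% higher and 2.21% lower in the mutant), and DESeq2 and limma called 0. In normalized counts, the clutches of the genotypes overlapped for all 7 genes, while 0.72% of the tested genes did not overlap. The log2 fold changes of the 5 genes, *aldh2.1*-/- against *aldh2.1*+/+, had a median of 0.12, beside 0.01 over all tested genes, with 4 above 0 and 1 below.

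Among the hormones, *ins* (ENSDARG00000035350), which encodes preproinsulin, had 322.5, 266.4, 167.7, 238 and 127.8 normalized counts in *aldh2.1*-/- replicates 1, 2, 3, 5 and 6. In *aldh2.1*+/+ replicates 1, 2, 3, 5 and 6 it had 187.1, 98.3, 189.9, 225.1 and 219.6. The mutant clutches held the highest value, 322.5, and the wild-type clutches the lowest, 98.3, and the other clutches of both genotypes were mixed. The mutant mean ± SD was 224.5 ± 77.7 and the wild-type mean 184 ± 50.9, and the log2 fold change was 0.29 ± 0.26 (SE). The edgeR adjusted p was 0.923, and p was 0.437 by two-sided exact permutation. The 95% interval of the difference ran from 0.822-fold to 1.82-fold. The log2 fold change moved to 0.12 without *aldh2.1*-/- replicate 1, to 0.13 without *aldh2.1*+/+ replicate 2 and to 0.43 without *aldh2.1*-/- replicate 6.

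The second insulin gene *insb* (ENSDARG00000034610), known in zebrafish from the early embryo, did not pass the filter. The mutant had 1, 2, 3, 1 and 2 counts and the wild type 1, 9, 2, 3 and 4, in replicates 1, 2, 3, 5 and 6. Of the 19 counts in wild-type larvae, 9 came from replicate 2. When all genes with a count were kept, its log2 fold change was −1.05 (SE 0.65, adjusted p = 0.854 by edgeR), at a depth where counting alone gives a CV of 59.8%.

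The glucagon gene *gcga* (ENSDARG00000079296) had 116, 132.7, 127, 131.3 and 119.2 normalized counts in *aldh2.1*-/- replicates 1, 2, 3, 5 and 6. In *aldh2.1*+/+ replicates 1, 2, 3, 5 and 6 it had 119.9, 141, 242.8, 147 and 110.3. The mutant clutches were close together, and replicate 3 stood above all other wild-type clutches. The mutant mean ± SD was 125.2 ± 7.35 and the wild-type mean 152.2 ± 52.8, and the log2 fold change was −0.28 ± 0.19 (SE), with a 95% interval from −0.69 to 0.13. The edgeR adjusted p was 0.921, and p was 0.325 by two-sided exact permutation. Without *aldh2.1*+/+ replicate 3 the log2 fold change was −0.05 (SE 0.13).

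The gene listed as *GCG* had 56.7, 54.5, 29.4, 32 and 32.5 normalized counts in *aldh2.1*-/- replicates 1, 2, 3, 5 and 6, and 26.9, 19.9, 56, 48.7 and 24.4 in *aldh2.1*+/+ replicates 1, 2, 3, 5 and 6. In each genotype 2 clutches lay near 50 and 3 near 30 or below. The mutant mean ± SD was 41 ± 13.4 and the wild-type mean 35.2 ± 16.1, and the log2 fold change was 0.23 ± 0.32 (SE), with an edgeR adjusted p of 0.936. It was 0.08 without *aldh2.1*+/+ replicate 2 or *aldh2.1*-/- replicate 1, and 0.46 without *aldh2.1*+/+ replicate 3. Its values overlapped between the genotypes, and the wild-type clutch with the highest *gcga* value also had the highest *GCG* value.

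*ghrl* (ENSDARG00000054239), which encodes ghrelin, a hormone of epsilon cells and of the gut, did not pass the filter. Counts in the mutant were 0, 4, 0, 5 and 1, and in the wild type 3, 2, 5, 0 and 2, for replicates 1, 2, 3, 5 and 6. A count of 0 allows up to 3 counts, or 0.145 to 0.152 CPM (counts scaled to library depth), for counting error only. Each genotype held libraries with and without a read of *ghrl*. When all genes with a count were kept, edgeR gave a log2 fold change of −0.26 ± 0.89 (SE) and an adjusted p of 0.969.

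The transcription factor gene *pdx1* (ENSDARG00000002779) had 129.7, 143.6, 102.3, 106.7 and 58.7 normalized counts in *aldh2.1*-/- replicates 1, 2, 3, 5 and 6. In *aldh2.1*+/+ replicates 1, 2, 3, 5 and 6 it had 124, 117.1, 62.3, 106.5 and 87.9. The lowest clutches were replicate 6 of the mutant and replicate 3 of the wild type. The mutant mean ± SD was 108.2 ± 32.4 and the wild-type mean 99.6 ± 24.9, and the log2 fold change was 0.12 ± 0.24 (SE), with a 95% interval from −0.39 to 0.63. The edgeR adjusted p was 0.953, and p was 0.691 by two-sided exact permutation. Without *aldh2.1*-/- replicate 2 the log2 fold change was −0.00082 and without *aldh2.1*+/+ replicate 3 it was −0.0053, so no direction can be given.

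Of the convertases, *pcsk1* (ENSDARG00000002600), which makes the first cuts in proinsulin in mammals, had 554.6, 411, 554.4, 280.7 and 353 normalized counts in *aldh2.1*-/- replicates 1, 2, 3, 5 and 6. In *aldh2.1*+/+ replicates 1, 2, 3, 5 and 6 it had 337, 498.3, 326.8, 320.4 and 441.2. Both the highest and the lowest clutch were mutant. The log2 fold change was 0.16 ± 0.20 (SE), with a 95% interval from −0.26 to 0.59 (edgeR adjusted p = 0.936, two-sided exact permutation p = 0.548). It was 0.06 without *aldh2.1*-/- replicate 1 or replicate 3, and 0.28 without *aldh2.1*-/- replicate 5.

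*pcsk2* (ENSDARG00000019451), the convertase that frees glucagon from its precursor in mammalian alpha cells, had 572, 455.6, 415.1, 261.5 and 276.6 normalized counts in *aldh2.1*-/- replicates 1, 2, 3, 5 and 6. In *aldh2.1*+/+ replicates 1, 2, 3, 5 and 6 it had 353.5, 436.8, 339.3, 337.7 and 383.6. All wild-type clutches lay inside the range of the mutant clutches. The log2 fold change was 0.10 ± 0.19 (SE), with a 95% interval from −0.32 to 0.52 (edgeR adjusted p = 0.953, two-sided exact permutation p = 0.881), and −0.07 without *aldh2.1*-/- replicate 1.

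**Figure D2:**
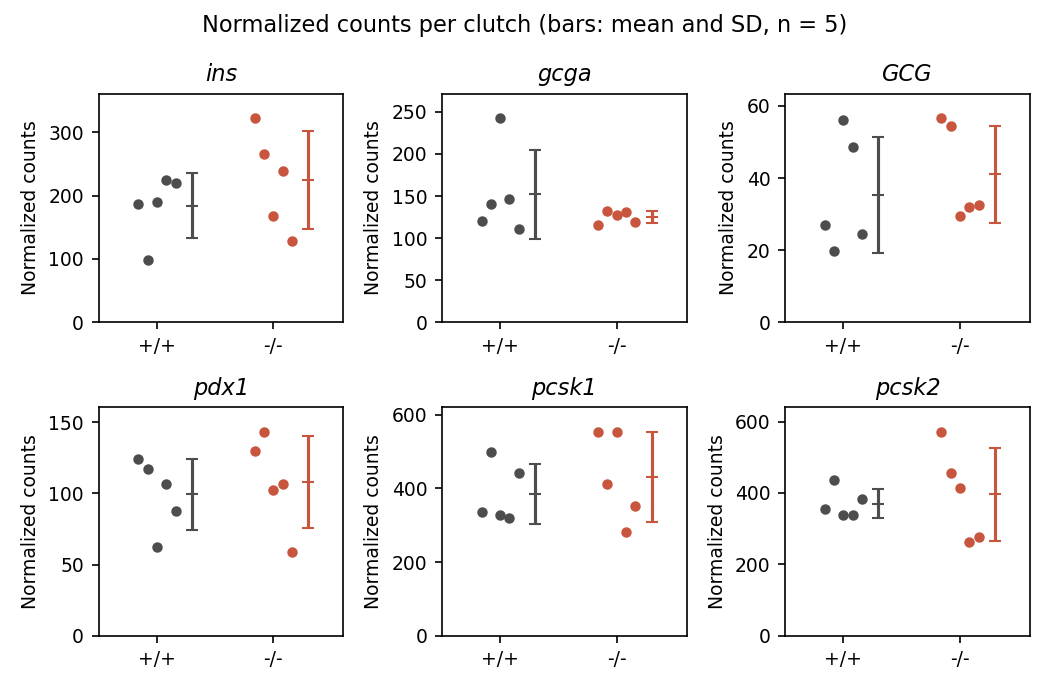
Normalized counts of 6 islet genes in each clutch, with axes from 0, grey for *aldh2.1*+/+ and red for *aldh2.1*-/-. Points are clutches, and the bars beside them are the mean and SD of 5. *gcga* is within 116 to 132.7 in the mutant clutches, and 1 wild-type clutch reaches 242.8.

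**Figure D3:**
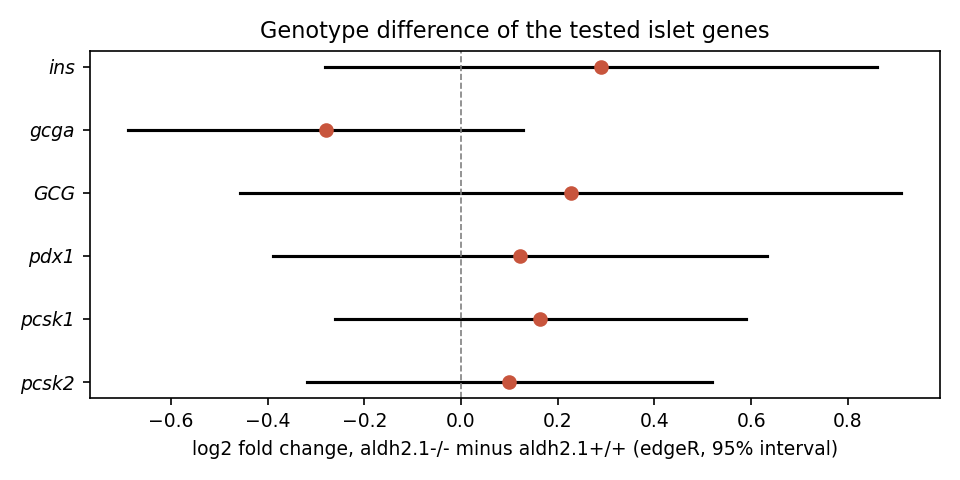
Log2 fold change of *aldh2.1*-/- against *aldh2.1*+/+ larvae for the 6 islet genes with a test (points) and 95% intervals from edgeR (lines). Every interval includes 0, from −0.28 to 0.86 for *ins* and from −0.69 to 0.13 for *gcga*.

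The islet genes varied between clutches of the same genotype by more than most genes of like abundance, and of the 5 tested genes *ins* exceeded the largest share. The SD of *ins* within a genotype was 0.51 on the log2 CPM scale, larger than that of 96.7% of the 3606 tested genes within 0.5 log2 CPM of it, whose median SD was 0.20. The same share was 92.2% for *pcsk1*, 91.7% for *pcsk2*, 88.7% for *pdx1* and 75.9% for *gcga*. Counting noise was smaller, since the CV of *ins* was 34.6% in *aldh2.1*-/- and 27.7% in *aldh2.1*+/+ clutches, beside 6.98% from its counts alone. For *gcga* the mutant clutches, with a CV of 5.87%, differed by less than the 8.51% that counting gives, and the wild-type clutches had a CV of 34.7%.

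No relation between insulin and glucagon RNA passed a test over the clutches. Levels were centred within genotype and compared over the 10 clutches by Pearson's r and Spearman's rho, with exact permutation within genotype and adjustment over the 10 pairs of tested genes. For *ins* and *gcga*, r was −0.01 and rho 0.01 (exact p = 0.977 and 1, adjusted p = 0.977 and 1), and r was −0.20 without *aldh2.1*-/- replicate 6 and *aldh2.1*+/+ replicate 2, the 2 clutches farthest from the median of *ins*. The TPM ratio of *ins* to *gcga* ran from 3.63 to 10.3 in mutant and from 2.08 to 6.63 in wild-type clutches. For *ins* and *pdx1*, r was 0.38 and rho 0.36 (exact p = 0.319 and 0.346, adjusted p = 0.614 and 0.865), and r was 0.33 without the same 2 clutches.

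The 2 convertases gave the highest correlation of the 10 pairs. For *pcsk1* and *pcsk2*, r was 0.85 (exact p = 0.0109, adjusted p = 0.109) and rho was 0.90 (exact p = 0.00465, adjusted p = 0.0465), so the pair passed by rank and not by Pearson's r. Without *aldh2.1*-/- replicates 1 and 3, the clutches farthest from the median of *pcsk1*, r was 0.83. The TPM ratio of *pcsk2* to *pcsk1* stayed between 0.934 and 1.37 in all 10 libraries, while *pcsk2* itself ranged 2.69-fold. With *pdx1*, *pcsk2* had r 0.58 and rho 0.58 (exact p = 0.114 and 0.135, adjusted p = 0.572 and 0.676), and r was 0.43 without the 2 clutches farthest from the median of *pdx1*. For *ins* with *GCG*, in a separate family of 5 pairs added after the data were seen, r was 0.65 and rho 0.61 (exact p = 0.0485 and 0.0735, adjusted p = 0.242 and 0.367). That r was 0.51 without *aldh2.1*-/- replicate 6 and *aldh2.1*+/+ replicate 2.

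Since neurons and pituitary cells also express convertases, their markers were compared with the same clutch deviations, among 20 relations of 5 genes with 4 marker lists, chosen after the data were seen. The mean level of 14 neuron markers correlated negatively with *pcsk2* (r −0.76, rho −0.68, exact p = 0.0151 and 0.0514, adjusted p = 0.301 and 0.514) and with *pcsk1* (r −0.58, rho −0.76, exact p = 0.142 and 0.0185, adjusted p = 0.66 and 0.369). Without *aldh2.1*-/- replicates 1 and 5, the clutches farthest from the median of *pcsk2*, its r was −0.29. Without *aldh2.1*-/- replicates 1 and 3, the clutches farthest from the median of *pcsk1*, its r was −0.52. Leaving out the farthest clutches also narrows the range, so these values do not show which clutches a relation rests on. The summed neuron markers ranged from 82710 to 107300 normalized counts in mutant and from 93440 to 100300 in wild-type clutches, with 0 of 14 markers at 0. The 20 pituitary and hypothalamus markers summed to between 1067 and 1615 in mutant and between 1327 and 1471 in wild-type clutches, and 1 of them was at 0 in every library. The mean level of the 12 of them that passed the filter was compared with *pcsk1* and *pcsk2*. It gave r of −0.15 and 0.19 (exact p = 0.682 and 0.692, adjusted p = 0.728 for both) and rho of 0.15 and 0.33 (exact p = 0.705 and 0.392, adjusted p = 0.9 for both). Without the 2 clutches farthest from the median of each convertase, r was −0.13 and 0.14.

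The exocrine pancreas, which shares its early *pdx1* expression with the islet, was compared in the same way. Its 25 markers, digestive enzymes for the most part, summed to between 7965 and 21490 normalized counts in mutant and between 7719 and 18220 in wild-type clutches, with 0 markers at 0. The mean level of the 20 that passed the filter gave r of 0.41 with *ins* (rho 0.24, exact p = 0.259 and 0.541, adjusted p = 0.66 and 0.9), falling to 0.18 without the 2 clutches farthest from the median of *ins*. With *pdx1* it gave r of 0.26 (rho 0.14, exact p = 0.502 and 0.731, adjusted p = 0.718 and 0.9), and 0.22 without the 2 clutches farthest from the median of *pdx1*. The 15 gut enteroendocrine markers summed to between 3025 and 4404 in mutant and between 3509 and 3942 in wild-type clutches. They include peptide genes such as *vip*, *penka* and *tac3a*. Since whole larvae were sequenced, their level need not come from gut cells. The mean level of the 13 that passed the filter gave r of −0.45 with *ins* (rho −0.45, exact p = 0.211 and 0.23, adjusted p = 0.66 and 0.9), or −0.09 without the 2 clutches farthest from the median of *ins*. None of the 20 relations with a marker list passed adjustment, and the part of these cell types in the spread of the islet genes was not tested.

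**Figure D4:**
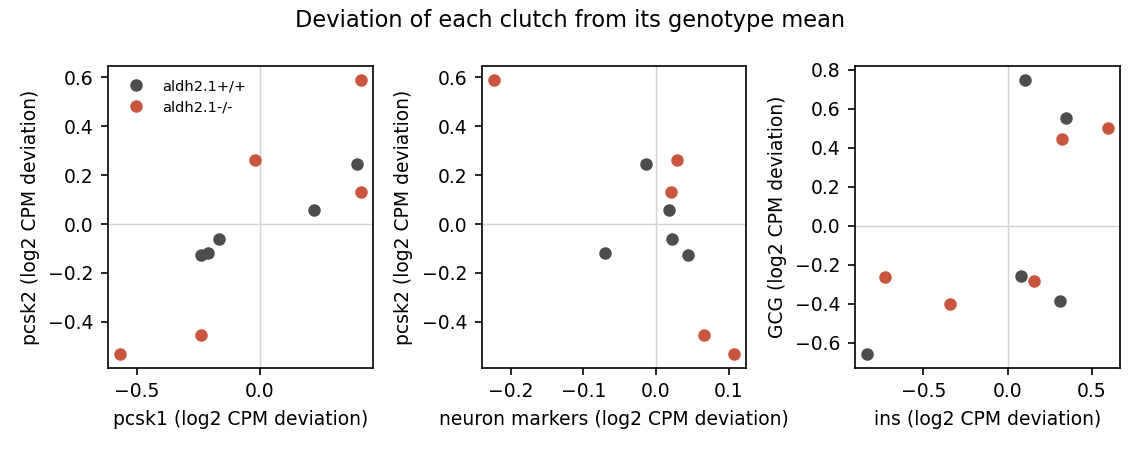
Deviation of each clutch from its genotype mean in log2 CPM, grey for *aldh2.1*+/+ and red for *aldh2.1*-/-, 10 clutches per panel. The panels plot *pcsk2* against *pcsk1* (r 0.85), *pcsk2* against the mean of the neuron markers (r −0.76, with 1 mutant clutch far to the left) and *GCG* against *ins* (r 0.65).

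The counts and the TPM of *gcga* did not keep a fixed ratio over the libraries. For a gene with 1 transcript, the counts per TPM are set by the transcript length and are the same in each library once scaled by the median over genes. Scaled in this way, *gcga* had 22.2, 22.1, 21.7, 21.5 and 19.9 counts per TPM in *aldh2.1*-/- and 20.1, 18.1, 24.5, 23.2 and 20 in *aldh2.1*+/+ replicates 1, 2, 3, 5 and 6. The CV was 8.73%, larger than in 91.2% of 18084 genes with more than 20 counts in every library, whose median CV was 0.45%. The highest ratio was in *aldh2.1*+/+ replicate 3, the clutch with the most *gcga* counts. The other tested genes had a CV from 0.03% for *pcsk2* to 0.97% for *pcsk1*. The means of *gcga*, 21.5 ± 0.93 in *aldh2.1*-/- and 21.2 ± 2.62 in *aldh2.1*+/+ clutches, did not differ beyond the spread (two-sided exact permutation p = 0.754). In TPM *gcga* ranged 1.59-fold over the libraries, and on the log2(TPM + 1) scale its log2 fold change was −0.18 (SE 0.12, adjusted p = 0.984 by limma).

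**Figure D5:**
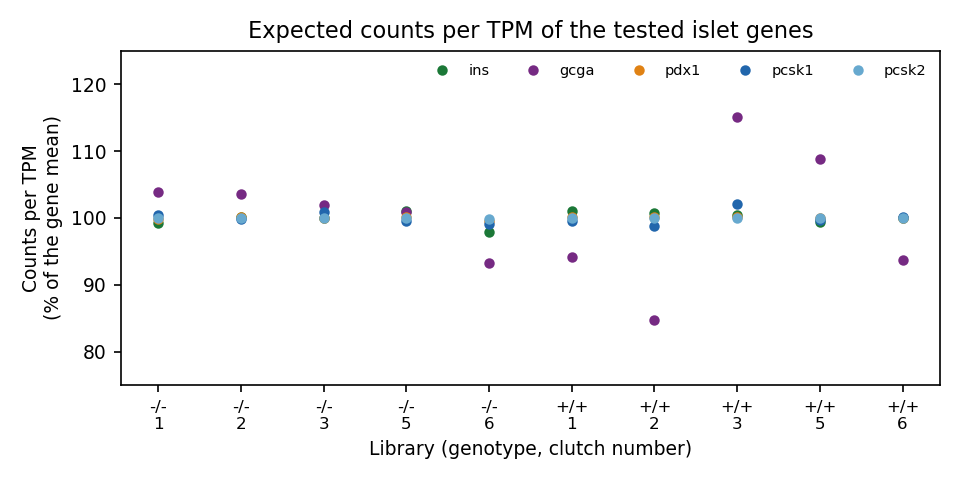
Expected counts per TPM of 5 islet genes in each library, scaled by the median over genes and drawn as a percentage of the gene's mean over 10 libraries. *gcga* scatters between 18.1 and 24.5 counts per TPM around its mean, and *ins*, *pdx1*, *pcsk1* and *pcsk2* each have a CV under 1%.

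None of the other hormones that islet cells can make passed the test between genotypes. Of the 8 genes found for this list, 6 were tested, 0 passed the adjusted threshold and 0 had an unadjusted p under 0.05, with 2 higher and 4 lower and a median log2 fold change of −0.06. Somatostatin, the delta cell hormone that inhibits insulin and glucagon release, was listed as *SST* and had between 51.2 and 65.6 TPM, a level above the mean of *ins*. Brain neurons make it too. It averaged 561.1 ± 84.9 normalized counts in mutant and 574.8 ± 21.5 in wild-type clutches, with a log2 fold change of −0.04 (SE 0.10, 95% interval −0.25 to 0.18), and turned to 0.01 with limma on TPM. The peptide YY gene *pyya* had a log2 fold change of 0.17 (SE 0.15) and the second copy, listed as *PYY*, −0.08 (SE 0.16). Neuropeptide Y, listed as *NPY*, had −0.19 (SE 0.21), or −0.03 without *aldh2.1*-/- replicate 1 and −0.32 without *aldh2.1*-/- replicate 6, and *sst6* had −0.26 (SE 0.26) and *sst1.2* 0.05 (SE 0.38). *sst2*, with 8.81 ± 3.03 against 8.12 ± 3.3 normalized counts, and *gip*, with 4.13 ± 1.4 against 5.44 ± 1.65, were too low for a test.

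Islet transcription factors, 28 tested genes of which many also act in neurons, had a median log2 fold change of −0.01, with 14 above and 14 below 0. None passed an adjusted p of 0.05 by edgeR, and 2 of 28 had an unadjusted p under 0.05, beside 5.04% of all tested genes. Among them was the beta cell and motor neuron factor *MNX1*, with 93.5 ± 13.8 against 74.3 ± 9.15 normalized counts (log2 fold change 0.33 ± 0.15 SE, with an edgeR adjusted p of 0.921). *MAFA*, which activates insulin transcription in mammals, had 0.18 (SE 0.09).

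The 25 tested genes of secretory granules and prohormone processing had 13 log2 fold changes above and 12 below 0, with a median of 0.03, 0 past the adjusted threshold and 1 of 25 at an unadjusted p under 0.05, beside 5.04% of all tested genes. That gene (ENSDARG00000032126), which shares the symbol *SCG5* with another, encodes a copy of the chaperone that Pcsk2 needs to mature. It had 592.1 ± 188.3 normalized counts in *aldh2.1*-/- clutches (355.7 to 794.8) and 897.7 ± 209.5 in *aldh2.1*+/+ clutches (565.1 to 1107), and the log2 fold change was −0.60 ± 0.23 (SE), with an edgeR adjusted p of 0.921. The synaptic and granule vesicle gene *RAB3A* (ENSDARG00000043835) had 0.27 (SE 0.15) and *vgf*, which encodes a granule peptide precursor, 0.10 (SE 0.07).

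Genes of glucose sensing and insulin secretion held 16 tested members, 7 above and 9 below 0, with a median of −0.01. With edgeR 0 passed the adjusted threshold and 3 of 16 had an unadjusted p under 0.05, beside 5.04% of all tested genes. All 3 had a lower mean in *aldh2.1*-/- larvae, beside 2.21% of all tested genes in that direction. Among them, the glucose transporter gene *SLC2A1* (ENSDARG00000001437) had 638 ± 143.6 against 865 ± 170.6 normalized counts (log2 fold change −0.44 ± 0.16 SE, with an edgeR adjusted p of 0.921). *ABCC8* (ENSDARG00000077007), a subunit of the potassium channel that couples glucose to insulin release, had −0.30 (SE 0.13). Another gene is also listed under each of these symbols, and the values are of the copy named.

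Hormone receptors, 17 tested genes, had a median log2 fold change of 0.02, with 10 above and 7 below 0, 0 past the adjusted threshold and 1 of 17 at an unadjusted p under 0.05, beside 5.04% of all tested genes. That gene was the somatostatin receptor gene *sstr5*, with 92.6 ± 19.1 against 65.7 ± 6.76 normalized counts (0.50, SE 0.17, adjusted p = 0.921 by edgeR). The growth factor receptor gene *IGF1R* (ENSDARG00000034434) had −0.13 (SE 0.06) and the receptor partner *RAMP3*, which pairs with calcitonin family receptors, −0.33 (SE 0.17). The genes that respond to insulin and glucagon, 23 tested, had a median of 0.06 with 13 above and 10 below 0, and 0 passed the adjusted threshold. At an unadjusted p under 0.05 there were 1 of 23 higher and 2 of 23 lower, beside 2.83% and 2.21% of all tested genes. The forkhead factor gene *FOXO1* (ENSDARG00000061549), which insulin signalling inhibits, had 19.5 ± 10.4 against 9.5 ± 2.59 normalized counts (1.04, SE 0.36). The insulin receptor substrate gene *IRS2* (ENSDARG00000037099) had 545 ± 169.8 against 790.3 ± 133.3 (−0.54, SE 0.20) and the fatty acid synthase gene *FASN* −0.17 (SE 0.08).

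In the marker lists of other cell types, 0 genes passed the adjusted threshold. Among exocrine genes, 20 were tested with a median log2 fold change of 0.01, and 0 had an unadjusted p under 0.05. The chymotrypsinogen gene *ctrb.2* had −0.86 (SE 0.42), the lipase gene *CEL* (ENSDARG00000029822) 0.38 (SE 0.29) and the elastase gene *ela2l* −0.30 (SE 0.25). In the gut enteroendocrine list of 13 tested genes, 0 had an unadjusted p under 0.05, and *vipb* (0.40, SE 0.20), *NTS* (0.33, SE 0.20) and *tac3a* (0.28, SE 0.18), all peptide genes, had the smallest p. In the neuron list of 14 genes, 1 had an unadjusted p under 0.05, beside 5.04% of all tested genes, the neurofilament gene *nefma* (0.19, SE 0.09), followed by *syn1* (0.12, SE 0.08) and *sypa* (−0.11, SE 0.09), genes of synaptic vesicle proteins. In the pituitary and hypothalamus list of 12 tested genes, 0 had an unadjusted p under 0.05. The pituitary hormone genes *CGA* (ENSDARG00000040479), *POMC* and *pomcb* had −0.24 (SE 0.19), 0.56 (SE 0.46) and 0.30 (SE 0.38). For every list named here DESeq2 and limma also called 0 genes after adjustment.

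The genes whose levels most resembled those of *ins* over the 10 clutches, by Pearson's r of log2 CPM centred within genotype among 16241 named genes with at least 50 normalized counts on average, were *CPNE1* (r 0.97), *focad* (0.94), *nedd1* (0.93), *RNPEPL1* (0.93) and *SHISA3* (0.92). For *gcga* they were *CCNT2* (0.96), *DPAGT1* (0.92), *shc2* (0.89), *si:ch211-213a13.1* (0.89) and *MFAP3L* (0.89). None of the other islet genes was among them, although *GCG*, *insb* and *ghrl* lay under 50 normalized counts on average and could not appear. The points share their libraries, and the highest of so many correlations over 10 clutches is given as a description only.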

How the data were processed

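Per the study, total RNA of whole larvae at 120 hpf was sequenced on the BGISEQ-500, with n = 5 clutches. The sample titles number the 5 libraries of each genotype, and these numbers are called replicate or clutch numbers here. The submitters' processing notes name Trim Galore 0.6.4, kallisto 0.4.6 and GRCz11. The authors deposited expected counts (estimated reads per gene, not normalized) and TPM (scaled for transcript length and to a fixed library total). The annotation version is not given in the sources used here.

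Expected counts were rounded and analysed with edgeR 4.0.16 (R 4.3.3), using TMM (factors 0.949 to 1.08), filterByExpr, a robust quasi-likelihood fit on genotype and Benjamini-Hochberg adjustment at 0.05. Log2 CPM used a prior count of 2. Exact permutation of 5 against 5 clutches cannot give p under 0.00794. P-values set a genotype difference, or a correlation, against the spread between clutches. They do not cover differences between independent mutant lines, since all mutant clutches carry the same deletion. Normalization was varied (no TMM, or DESeq2 1.42.0 with its size factors), as was the filter (any gene with 1 count, or a mean of at least 10 counts). TPM were tested with limma 3.58.1 after a log2 transform with a pseudocount of 1 or 0.1. The clutch number was also fitted as a replicate block, and each library was left out in turn. The steps were tested on simulated data.

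Symbols came from a table that mixes human and zebrafish names, which named 29201 of 32520 genes. List genes were matched by symbol, else without the copy letter or in human spelling. Where a named list gene shares its symbol with another gene, its Ensembl identifier is given and the values are of that copy only. Named genes were the islet genes, for each list the genes past the threshold or otherwise the 3 with the smallest p, and the 5 genes most like *ins* and *gcga*. Some genes that this rule names are not reported here. *SST*, *sst1.2*, *sst2*, *PYY* and *gip* were named after their values were seen. The genes and lists were chosen with earlier results of these data known. Equal clutch numbers were not taken as pairs.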

Additional observations from a re-analysis of the deposited data

Results flagged for a closer look

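Among 16 groups of 5 clutches (8 islet genes in each genotype), 1 had a clutch far from the others in normalized counts. For *gcga*, *aldh2.1*+/+ replicate 3 had 242.8 normalized counts, and the other wild-type clutches had between 110.3 and 147. The gap to the nearest clutch was 0.723 of the range, where 0.71 is the limit for 5 samples, and chance passes this limit in about 1 of 20 groups. In TPM the same clutch had 8.81, close to the 8.26 of *aldh2.1*+/+ replicate 2, and the lowest wild-type clutch had 5.72. It thus stood apart in counts and not in TPM. The clutch also had the highest *gcga* counts per TPM (24.5), a ratio that contains the flagged counts.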

How the results depend on the processing

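No alternative brought an islet gene past an adjusted p of 0.05. The number of genes past it over all tested genes, 2, was 22 with DESeq2, 4 with no filter beyond 1 count, 1 with the replicate block and between 2 and 48 without 1 library (48 without *aldh2.1*-/- replicate 5, 4 without *aldh2.1*-/- replicate 1). Without 1 library the log2 fold change ranged from −0.0053 to 0.28 for *pdx1*, from −0.070 to 0.22 for *pcsk2*, from 0.057 to 0.28 for *pcsk1*, from 0.077 to 0.46 for *GCG*, from −0.32 to −0.029 for *NPY*, from −0.10 to 0.033 for *SST*, from −0.37 to 0.25 for *sst1.2* and from −0.19 to 0.037 for *PYY*. With limma on log2(TPM + 1) and log2(TPM + 0.1), *SST* had 0.0067 and 0.0068 and *sypa* 0.069 and 0.069. *sst1.2* had −0.068 on log2(TPM + 0.1) and −0.062 with the replicate block. The cause of these changes was not tested. The pairs of islet genes past adjustment by Pearson's r, 0, were 1 on log2(TPM + 0.1), where *pcsk1* and *pcsk2* had r 0.90 (adjusted exact permutation p = 0.0201), and 0 to 1 without 1 library, with r from 0.76 to 0.89.

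Libraries with the same clutch number did not stand out as pairs, and whether they share an origin was not tested. Over all genes, same-numbered libraries correlated between −0.129 and 0.109, with 1 of 5 pairs over 0.1. Differently numbered libraries correlated between −0.219 and 0.174, and 1 mutant library correlated best with its own number. With the replicate block the log2 fold change was 0.27 for *ins*, −0.23 for *gcga*, 0.11 for *pdx1*, 0.14 for *pcsk1* and 0.05 for *pcsk2*, and it called 0 of them. Depth limits *insb*, *ghrl* and *GCG* most, where counting alone gives a CV of 59.8%, 67.4% and 16.2%.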
